A study of Mus musculus with 2 samples.

Results

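Polycomb and trithorax proteins keep genes off or on through cell divisions, and this account describes the RNA levels of 39 genes that encode their complexes in the mouse embryonic neural tube. The genes were taken by symbol, through the GENCODE annotation of GRCm38, from the 43346 gene identifiers of the deposited tables, and all 39 were found. They comprise 9 genes of Polycomb repressive complex 2 (PRC2), 17 of Polycomb repressive complex 1 (PRC1), 12 of the KMT2 complexes of the trithorax group, among which the KDM6 demethylases were counted, and Asxl1. The choice rested on gene function and its rule used no measured value, although earlier results of these data were known when it was made.

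The data are 2 RNA-seq libraries of neural tube dissected at embryonic day 11.5 from B6NCrl mice of mixed sex, with no treatment and no second condition. Replicate 1 was a pool of 109 embryos and replicate 2 a pool of 88 embryos. Each library was made from 10 ng of RNA longer than 200 bases, with spike-in RNAs added. The labels name both a SmartSeq protocol and total RNA, and which of these describes the libraries could not be settled. With 1 group there is no contrast between conditions, so levels are described with the spread between the pools, and no test was run.

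PRC2 places a repressive methyl mark on histone H3, and PRC1 places a ubiquitin mark on histone H2A. The KMT2 enzymes methylate histone H3 at another lysine, found at active promoters and enhancers, and the KDM6 enzymes remove the PRC2 mark. Most subunits are encoded by several paralogs, related genes that arose by duplication, and which paralog is used decides which variant of a complex can form. In the developing neural tube these complexes are known for holding Hox genes and the regulators of other lineages in the off or on state that a cell's position calls for.

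The libraries held 27638068 expected counts in replicate 1 and 29166901 in replicate 2, and the 39 genes took 0.284% and 0.289% of the gene counts. Levels are given as TPM, in which reads are divided by transcript length and scaled to a fixed total per library, so that genes can be compared with each other. The tissue was not a pure cell population. All 8 progenitor markers were detected, led by Vim at 971 TPM and Fabp7 at 735 TPM. Their median was 35.0 TPM, and the lowest, Sox1, had 1.6 TPM. RNAs of neurons (Tubb3 at 740 TPM, Nefl at 354 TPM) and of dividing cells (Cdk1 at 291 TPM, Ccnb1 at 270 TPM) were abundant. The medians of those 2 lists were 265 TPM and 260 TPM. Marker levels here are means of the 2 libraries. Blood RNA was also present, with the embryonic globins Hbb-y at 6724 TPM and Hba-x at 1918 TPM. All 6 mesenchyme markers (Col3a1 at 291 TPM, Col1a2 at 126 TPM), all 5 endothelial markers (Cldn5 at 28.7 TPM, Kdr at 22.8 TPM) and all 5 macrophage markers (C1qb at 20.2 TPM, Tyrobp at 13.9 TPM) were detected as well. How much of any level below came from each of these cells was not tested, and in such bulk tissue fewer cells of a type and less RNA per cell cannot be told apart.

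Nearly the whole Polycomb and trithorax machinery was present as RNA. Of the 39 genes, 38 were detected, meaning at 1 TPM or more in both libraries, against 59.9% of the 21474 protein-coding genes. The exception was Phf19, at 1.02 TPM in replicate 1 and 0.86 TPM in replicate 2. The median of the 39 genes was 23.8 TPM, against 4.40 TPM for all protein-coding genes and 19.9 TPM for the 12868 detected ones. Thus the median gene of the machinery stood only a little above the median detected gene, and 21 of the 39 lay above that median. The 39 levels spanned 155-fold, with Dpy30 highest at 145.5 TPM and Phf19 lowest at 0.94 TPM. Members at 10 TPM or more in both libraries numbered 27, and 5 averaged 100 TPM or more: Dpy30, Ash2l, Rnf2, Yaf2 and Mtf2.

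**Figure D1:**
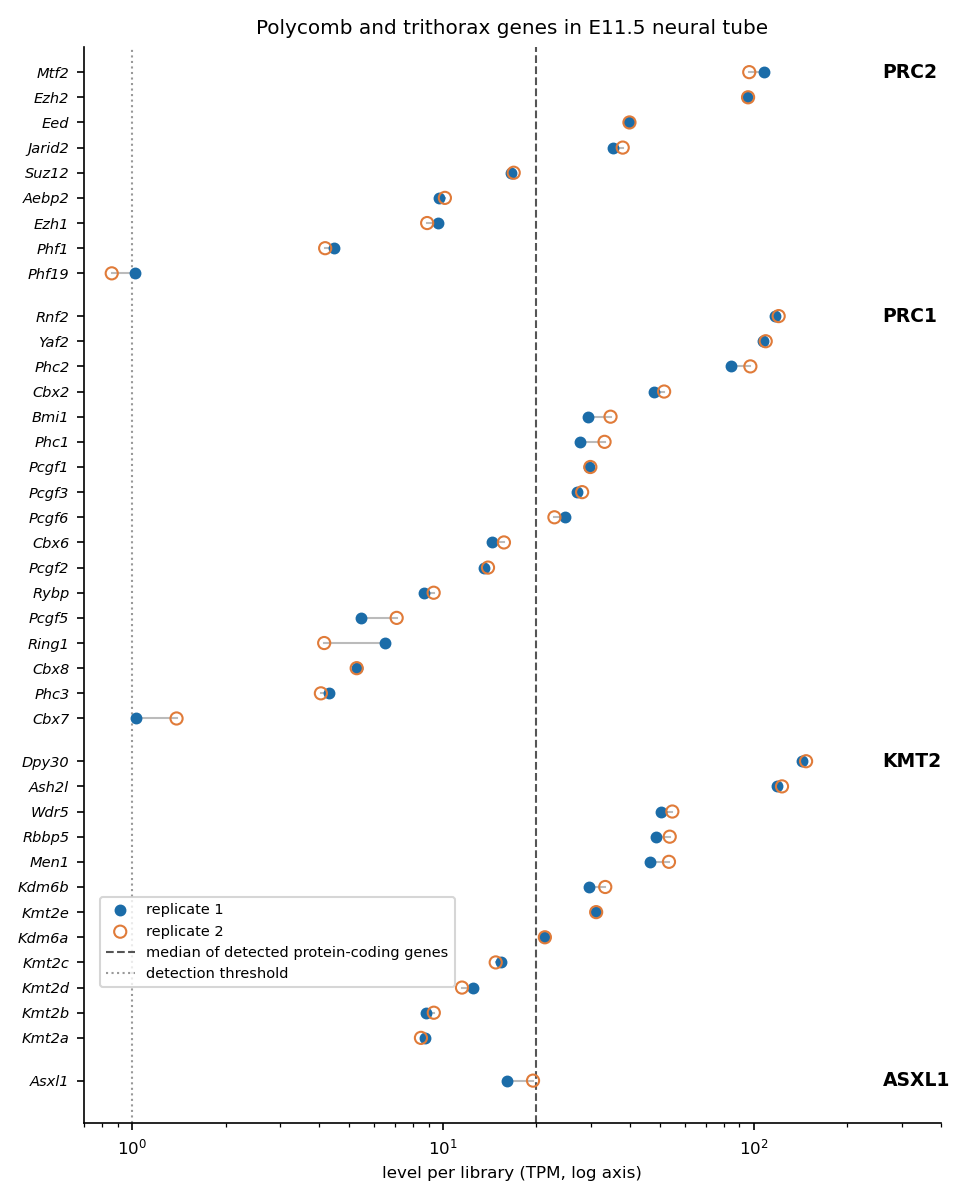
Level of each of the 39 genes in TPM on a log axis, with replicate 1 as a filled point and replicate 2 as an open ring, grouped by complex and ordered by mean. The dashed line marks the median of detected protein-coding genes (19.9 TPM) and the dotted line the detection threshold of 1 TPM; the rings and points of most genes nearly coincide, and Ring1, Cbx7 and Pcgf5 are the widest apart for their level.

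In the PRC2 core Ezh2 was the highest gene and Ezh1 the lowest, and with the EZH paralogs summed Suz12 was the scarcest subunit. Ezh2, the main catalytic subunit (chr6:47530139-47595341, GRCm38), had 95.2 TPM in replicate 1 and 95.9 TPM in replicate 2, from 3855 and 4003 counts. Its paralog Ezh1, a weaker methyltransferase usually associated with non-dividing cells (chr11:101191115-101226463), had 9.68 TPM and 8.90 TPM. The libraries kept the paralogs far apart, with Ezh2 10.2-fold above Ezh1, a log2 ratio of 3.35 ± 0.09 (SD, n = 2), and Ezh2 made up 91.1% ± 0.52 of the family's TPM (SD, n = 2). Eed, the subunit that binds the methyl mark and stimulates the enzyme, had 39.8 TPM in both replicate 1 and replicate 2. Suz12, the scaffold that holds the core together, had 16.6 TPM in replicate 1 and 16.9 TPM in replicate 2. The summed EZH level was therefore 6.24-fold above Suz12, and Eed was 2.37-fold above it, although the proteins meet in equal numbers in the complex. RNA levels do not give protein levels, which were not measured.

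The accessory subunits of PRC2 define its variants, and here they differed by 109-fold in level. The Polycomb-like proteins, which bring PRC2 to CpG-rich DNA, are encoded by Mtf2, Phf1 and Phf19. Mtf2 had 107.6 TPM in replicate 1 and 96.8 TPM in replicate 2, so that it supplied 95.1% of the Polycomb-like TPM. Phf1 had 4.47 TPM and 4.18 TPM, from 181 and 175 counts. For Phf1 39.3% of the exonic bases also lie in exons of Cuta on the opposite strand, a gene at about 100 TPM (98.2 TPM in replicate 1, 101.5 TPM in replicate 2). Whether the libraries keep strand is not known, so reads of the shared stretch could not be told apart, and the level of Phf1 is uncertain. Phf19, with 57 and 53 counts, was the lowest of the 39 genes. Jarid2, a DNA-binding subunit without demethylase activity, had 35.4 TPM in replicate 1 and 37.9 TPM in replicate 2. Aebp2, a zinc-finger partner often found together with Jarid2, had 9.74 TPM and 10.2 TPM. As whole genes the Polycomb-like sum was 2.30-fold above the sum of Jarid2 and Aebp2. On near full-length coding transcripts, defined with the transcripts further on, Mtf2 had only 28.9 TPM in replicate 1 and 29.4 TPM in replicate 2, below the 32.6 TPM and 35.9 TPM of Jarid2 by the same measure.

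In PRC1 the catalytic RING subunit was almost entirely Rnf2. Rnf2, also called Ring1b, the ubiquitin ligase that most PRC1 complexes rely on (chr1:151458004-151500955), had 117.4 TPM in replicate 1 and 120.4 TPM in replicate 2. Its paralog Ring1 (chr17:34020792-34024680) had 6.51 TPM and 4.15 TPM. Rnf2 exceeded Ring1 by 22.4-fold, a log2 ratio of 4.49 ± 0.48 (SD, n = 2), and held 95.7% ± 1.36 of the family's TPM. The spread of Ring1 in TPM came with nearly equal counts, 157 in replicate 1 and 149 in replicate 2. A retained-intron transcript of 371 bases, Ring1-202, was assigned 11.5 counts and 2.43 TPM in replicate 1 and 0 TPM in replicate 2, while the coding transcript Ring1-201 had 3.16 TPM and 3.64 TPM. Measured on near full-length coding transcripts, the log2 ratio of Rnf2 over Ring1 was 5.04, larger than on whole genes.

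Since the paralogs differ this much in RNA, the stretches just upstream of their start sites are shown, 250 bases each from the RefSeq promoter table of GRCm38.p6, read 5′ to 3′ on the gene's own strand. Capitals mark each CG dinucleotide, the site of DNA methylation that is dense in CpG islands. Rnf2 is at chr1:151500992-151501241 and Ring1 at chr17:34024681-34024930, both on the minus strand.
Rnf2: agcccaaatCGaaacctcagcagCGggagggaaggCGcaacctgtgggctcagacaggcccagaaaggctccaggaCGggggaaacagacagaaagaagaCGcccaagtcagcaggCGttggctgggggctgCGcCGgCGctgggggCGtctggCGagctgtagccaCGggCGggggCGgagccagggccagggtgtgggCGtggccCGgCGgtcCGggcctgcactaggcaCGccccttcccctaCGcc
Ring1: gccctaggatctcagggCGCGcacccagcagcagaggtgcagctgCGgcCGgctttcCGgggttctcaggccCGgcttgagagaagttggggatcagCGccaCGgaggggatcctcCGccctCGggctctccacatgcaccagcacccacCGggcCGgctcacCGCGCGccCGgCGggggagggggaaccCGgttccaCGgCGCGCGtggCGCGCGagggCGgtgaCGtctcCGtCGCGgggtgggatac
Both windows were rich in CG, with 20 sites in Rnf2 and 30 in Ring1, against a median of 10 over 20150 windows of protein-coding genes. The paralog with the much lower RNA level thus had the denser window, and each held 2 matches to GGGCGG, the GC box letters, counting both strands.

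The PCGF subunits sort PRC1 into its variants, and they were the most evenly shared family among the Polycomb genes. Bmi1, also called Pcgf4 and a subunit of canonical PRC1, had 29.3 TPM in replicate 1 and 34.6 TPM in replicate 2. Pcgf1, the subunit of the variant that contains KDM2B, had 29.4 TPM and 29.8 TPM. These values overlap, and Bmi1 and Pcgf1 were the only neighbours among the 19 neighbouring pairs of the 9 families that the libraries did not keep apart. Apart means only that the lower library of the upper gene exceeded the higher library of the lower gene. Small gaps pass this rule, such as 1.08-fold for Pcgf1 over Pcgf3 and 1.05-fold for Kmt2b over Kmt2a (log2 ratio 0.07 ± 0.09, SD, n = 2). The deposited intervals of the posterior mean TPM overlap within both of these pairs, so their orders are not settled. Pcgf3 followed at 27.0 TPM in replicate 1 and 28.1 TPM in replicate 2, and Pcgf6, which pairs with MGA and L3MBTL2, at 24.7 TPM and 22.9 TPM. This last order turned round on coding transcripts, where the log2 ratio of Pcgf3 over Pcgf6 was -0.059, and on near full-length ones, where it was -0.11, in place of 0.21. Pcgf2, also called Mel18 and the other canonical subunit, was lower at 13.5 TPM and 14.0 TPM. Pcgf5 was lowest at 5.44 TPM and 7.10 TPM. The mean shares of the family TPM ran from 24.0% for Bmi1 and 22.3% for Pcgf1 to 4.70% for Pcgf5. Grouped by complex type, the variant subunits Pcgf1, Pcgf3, Pcgf5 and Pcgf6 summed to 87.2 TPM and the canonical subunits Pcgf2 and Bmi1 to 45.7 TPM, a ratio of 1.91-fold that was 2.02-fold in replicate 1 and 1.81-fold in replicate 2.

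The CBX proteins carry the chromodomain through which canonical PRC1 binds the PRC2 mark, and Cbx2 led the 4 CBX genes described here. Cbx2 had 47.8 TPM in replicate 1 and 51.5 TPM in replicate 2, which was 69.7% of the sum in each. Cbx6 had 14.4 TPM and 15.7 TPM, and Cbx8 had 5.30 TPM and 5.28 TPM. Cbx7, known as the main CBX of pluripotent stem cells, was near the detection threshold with 1.03 TPM and 1.39 TPM, from 60 and 80 counts. The order Cbx2, Cbx6, Cbx8, Cbx7 was the same in both libraries, with steps of 3.28-fold, 2.81-fold and 4.15-fold. The last step is uncertain in size: the log2 ratio of Cbx8 over Cbx7 was 2.05, but 0.83 by the deposited posterior mean TPM and 1.40 on coding transcripts. The deposited intervals of the posterior mean for Cbx7, 1.29 to 5.36 TPM in replicate 1 and 1.65 to 5.69 TPM in replicate 2, lie wholly above its TPM values, and Cbx7 was the only member of which this was so. Cbx8 in turn had 3.02 TPM in replicate 1 and 3.01 TPM in replicate 2 on near full-length coding transcripts. On the chromosome Cbx2 and Cbx8 are neighbours, 5034 bases apart on chr11, and Cbx6 and Cbx7 lie 81118 bases apart on chr15. Each of these neighbour pairs joined a higher gene with one that was lower by more than the spread between the libraries.

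The PHC subunits link canonical PRC1 complexes to each other through a polymerising domain, and Phc2 supplied most of this RNA. Phc2 had 84.5 TPM in replicate 1 and 97.6 TPM in replicate 2. Phc1 had 27.7 TPM and 33.1 TPM, and Phc3 had 4.29 TPM and 4.05 TPM, of which 2.36 TPM and 2.42 TPM came from near full-length coding transcripts. Shares of the family TPM were steadier than the levels, at 72.5% and 72.4% for Phc2. Both Phc1 and Phc2 were somewhat lower in replicate 1, and Phc3 was not.

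Phc2 also had a choice of start site. The RefSeq table lists 3 start sites for it on the plus strand of chr4, at the gene's 5′ end and 34036 and 72869 bases downstream. Transcripts that begin within 250 bases of the most downstream site supplied 89.6% of the gene's TPM in replicate 1 and 90.2% in replicate 2, those at the gene's 5′ end 2.51% and 2.78%, and those at the middle site 4.50% and 4.67%. The leading transcript, Phc2-202 with 2535 bases, begins 14 bases downstream of that site and held 77.7% of the TPM in replicate 1 and 79.0% in replicate 2. The windows upstream of the 3 sites are shown, at chr4:128654452-128654701 (5′), chr4:128688488-128688737 (middle) and chr4:128727321-128727570 (downstream), GRCm38.p6, with CG in capitals as before.
Phc2 5′ site: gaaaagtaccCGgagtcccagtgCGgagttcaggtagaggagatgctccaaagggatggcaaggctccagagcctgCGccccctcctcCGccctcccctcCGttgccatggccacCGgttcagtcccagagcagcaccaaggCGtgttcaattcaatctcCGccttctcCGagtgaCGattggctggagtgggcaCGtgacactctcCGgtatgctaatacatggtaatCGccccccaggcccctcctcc
Phc2 middle site: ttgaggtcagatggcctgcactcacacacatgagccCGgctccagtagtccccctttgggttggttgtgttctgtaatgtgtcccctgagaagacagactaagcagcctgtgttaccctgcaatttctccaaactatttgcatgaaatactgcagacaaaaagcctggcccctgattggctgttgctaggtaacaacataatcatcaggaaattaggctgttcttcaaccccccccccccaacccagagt
Phc2 downstream site: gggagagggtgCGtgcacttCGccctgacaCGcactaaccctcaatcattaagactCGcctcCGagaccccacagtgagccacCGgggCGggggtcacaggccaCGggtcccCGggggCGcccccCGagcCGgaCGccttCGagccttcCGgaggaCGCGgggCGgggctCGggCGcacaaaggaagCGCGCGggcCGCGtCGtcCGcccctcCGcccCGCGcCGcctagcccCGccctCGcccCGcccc
The downstream window had 34 CG sites and a GC content of 76%, against 13 sites and 61.2% at the 5′ site and 1 site and 50% at the middle site. It held 6 matches to GGGCGG, against 1 and 0. Of the little-used sites, the middle one with 1 CG site held slightly more TPM than the 5′ one with 13. A link between CG content and use was not tested. A start site inferred from the division of reads among annotated transcripts is not a measured 5′ end.

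Rybp and Yaf2 encode interchangeable small subunits that take the place of CBX in variant PRC1. Yaf2 had 107.5 TPM in replicate 1 and 109.3 TPM in replicate 2, whereas Rybp had 8.68 TPM and 9.34 TPM. Yaf2 stood 11.9-fold above Rybp, a log2 ratio of 3.57 ± 0.06 (SD, n = 2), with 92.3% of the pair's TPM. In raw counts the gap was smaller, 3029 against 658 in replicate 1 and 3182 against 731 in replicate 2, because the Rybp transcript is 4458 bases long and the leading Yaf2 transcript 1676 bases. Part of Rybp is also hard to place: 4.84% of the 100-base windows in its transcripts occur in another gene, chiefly its processed pseudogene. The corresponding shares were 6.52% for Bmi1 and 5.03% for Pcgf1.

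**Figure D2:**
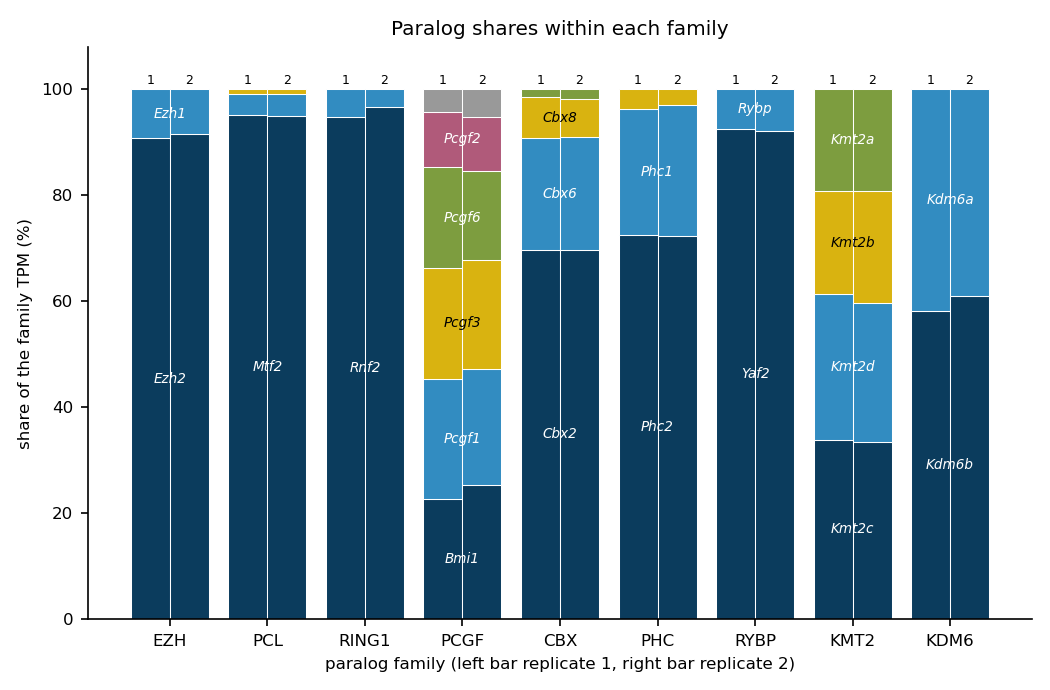
Share of each family's TPM (in percent) held by its paralogs, with replicate 1 as the left and replicate 2 as the right bar of each pair. Ezh2, Mtf2, Rnf2 and Yaf2 each fill over 90% of their bars, Cbx2 and Phc2 about 70%, and the PCGF, KMT2 and KDM6 bars are divided more evenly.

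The KMT2 methyltransferases were all present at modest whole-gene levels. Kmt2a (also called Mll1), which maintains Hox expression, had 8.77 TPM in replicate 1 and 8.50 TPM in replicate 2, and its closest relative Kmt2b had 8.85 TPM and 9.35 TPM. Kmt2c and Kmt2d, the enhancer-associated enzymes, had 15.4 TPM and 14.8 TPM for Kmt2c and 12.5 TPM and 11.5 TPM for Kmt2d. Kmt2e, a divergent relative with little known enzymatic activity, was higher at 31.0 TPM and 31.1 TPM. Of the Kmt2e exonic bases 9.31% also lie in exons of Srpk2 on the opposite strand, a gene at 25.5 TPM in replicate 1 and 24.6 TPM in replicate 2. With strand unknown, the Kmt2e level shares in lesser part the limit given for Phf1. The whole-gene order Kmt2c, Kmt2d, Kmt2b, Kmt2a was kept by both libraries but was not a stable property of the genes. On near full-length coding transcripts Kmt2d had 11.1 TPM in replicate 1 and 10.8 TPM in replicate 2, Kmt2a 8.45 TPM and 8.12 TPM, Kmt2b 4.89 TPM and 5.18 TPM, and Kmt2c 4.91 TPM and 5.07 TPM. The log2 ratio of Kmt2c over Kmt2d was then -1.11 in place of 0.33, and that of Kmt2b over Kmt2a -0.71 in place of 0.07.

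Each of the 4 proteins that all KMT2A to KMT2D enzymes share to become active had a higher whole-gene TPM than any 1 of these enzymes. Dpy30 had 143.6 TPM in replicate 1 and 147.5 TPM in replicate 2, the highest of the 39 genes. Ash2l had 118.5 TPM and 123.4 TPM. Wdr5, a WD-repeat protein used by other complexes too, had 50.2 TPM and 54.7 TPM, and Rbbp5 had 48.6 TPM and 53.7 TPM. Together they summed to 370 TPM, against 44.9 TPM for Kmt2a to Kmt2d, a ratio of 8.23-fold (7.91-fold in replicate 1 and 8.57-fold in replicate 2). SET1 enzymes, which use the same 4 proteins, are not in the denominator. The numerator adds 4 different subunits and the denominator 4 alternative enzymes, so the ratio is not one per complex. Singly, Wdr5 (mean 52.5 TPM) and Rbbp5 (mean 51.1 TPM) were only slightly above the enzyme sum. Rbbp5 averaged 26.8 TPM on near full-length coding transcripts. By counts, Kmt2d (3808 in replicate 1, 3815 in replicate 2) was above Wdr5, Rbbp5 and Dpy30 and below Ash2l (4829 and 5207). Men1, the menin subunit of the KMT2A and KMT2B complexes, had 46.4 TPM in replicate 1 and 53.4 TPM in replicate 2, well above either enzyme.

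Both demethylases of the PRC2 mark were expressed. Kdm6b had 29.5 TPM in replicate 1 and 33.3 TPM in replicate 2. Kdm6a, an X-linked gene whose protein sits in the KMT2C and KMT2D complexes, had 21.2 TPM and 21.3 TPM. Kdm6b was 1.47-fold above Kdm6a, a gap larger than the spread between the pools (log2 ratio 0.56 ± 0.12, SD, n = 2). Asxl1, the partner of the BAP1 deubiquitinase that removes the PRC1 mark, had 16.1 TPM in replicate 1 and 19.5 TPM in replicate 2.

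Side by side, the complexes had medians of 16.7 TPM for PRC2, 23.8 TPM for PRC1 and 31.2 TPM for the KMT2 genes. The ranges within them were wide and overlapped, 0.94 to 102.2 TPM in PRC2, 1.21 to 118.9 TPM in PRC1 and 8.64 to 145.5 TPM among the KMT2 genes. Sums over paralogs were more even than single genes in PRC1, with the RING sum at 124.2 TPM, the PCGF sum at 132.9 TPM, the PHC sum at 125.7 TPM, the sum of Rybp and Yaf2 at 117.4 TPM and the CBX sum at 71.2 TPM. The RING sum, whose proteins pair with a PCGF protein in every PRC1, was 0.935-fold the PCGF sum. In PRC2 the corresponding whole-gene sums ranged from 107.5 TPM for the Polycomb-like genes and 104.9 TPM for EZH to 16.7 TPM for Suz12. The Polycomb-like sum was nearly all Mtf2. On near full-length coding transcripts Mtf2 averaged 29.1 TPM in place of 102.2 TPM, and Ezh2 85.4 TPM, so this lead was not kept.

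**Figure D3:**
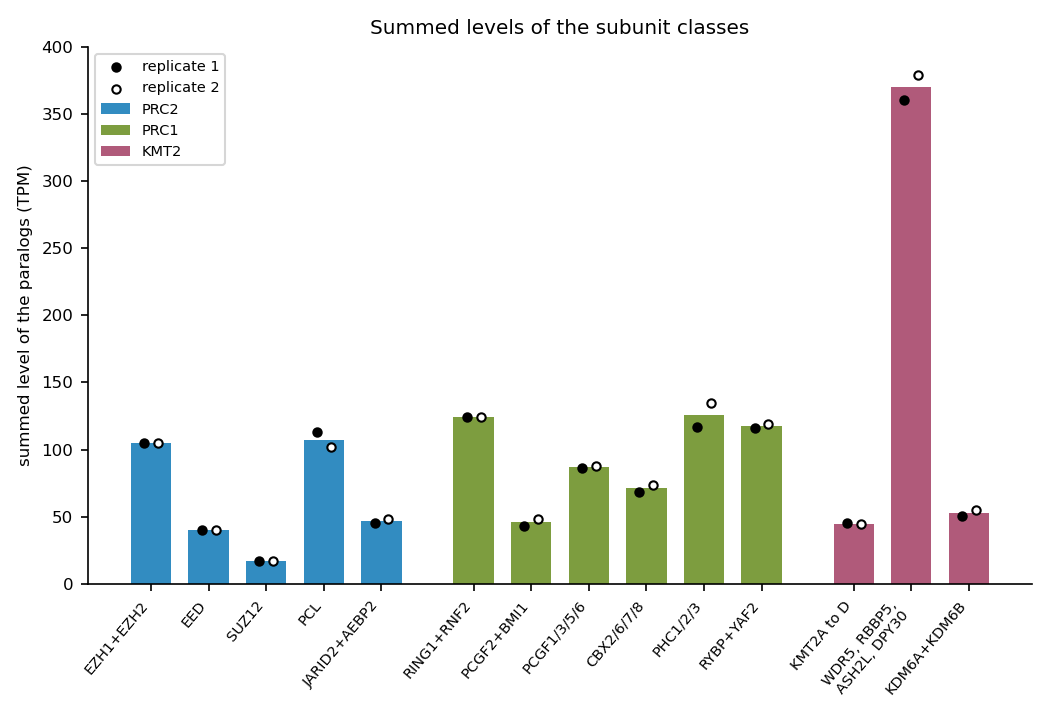
Summed whole-gene TPM of the genes of each subunit class in PRC2, PRC1 and the KMT2 complexes. Most bars add paralogs, but those of JARID2 with AEBP2 and of the shared KMT2 subunits add different subunits, and EED and SUZ12 are single genes. Bars are the mean of the 2 libraries, filled points replicate 1 and open points replicate 2. The shared KMT2 subunits reach 370 TPM against 44.9 TPM for the enzymes, the PRC1 classes with all paralogs summed lie between 71.2 and 132.9 TPM (PCGF is drawn as its 2 subgroups), and Suz12 is the lowest bar at 16.7 TPM.

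The order of all 39 levels could be read only in part. Of the 38 steps between genes next to each other in the order, 20 were larger than the spread between the libraries, that is, the lower library of the upper gene exceeded the higher library of the lower gene. At the top, Dpy30 was apart from Ash2l, but Ash2l and Rnf2 were not apart, and neither were Yaf2 and Mtf2 or Ezh2 and Phc2. A block of Wdr5, Rbbp5, Men1 and Cbx2 near 50 TPM had no step beyond its spread, nor had Bmi1, Kdm6b, Kmt2e, Phc1 and Pcgf1 near 30 TPM. At the bottom, Phc3 stood apart from Cbx7, and Cbx7 from Phf19.

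Gene levels include short and non-coding transcripts, and this mattered for several of the genes. Of the 39, 36 have several annotated transcripts in the tables, and in 33 of these the same transcript led in both libraries. Leading transcripts that held 50% or more of the gene's TPM in both libraries were found for 26 of the 36. Cbx6, Phc1 and Men1 changed leader. In Phc1 the transcript Phc1-201 had 34.5% of the TPM in replicate 1 and 1.09% in replicate 2, and Phc1-215 had 24.8% and 44.4%, both coding and of nearly the same length. Such moves between similar transcripts came with a gene level that differed much less, 27.7 TPM in replicate 1 and 33.1 TPM in replicate 2. For Cbx6 the leaders were Cbx6-202 in replicate 1 (43.0%) and Cbx6-203 in replicate 2 (42.0%), and for Men1 they were Men1-201 (45.4%) and Men1-203 (44.1%).

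In a pair of genes the leading transcript was a retained intron, which encodes no full protein. Kmt2b-207, of 571 bases, held 43.0% of the Kmt2b TPM in replicate 1 and 40.7% in replicate 2, from only 31.3 and 32.3 counts. Rbbp5-203, of 1923 bases, held 40.0% and 37.7% of the Rbbp5 TPM. Short transcripts gain a high TPM from few reads, as the Kmt2b values show. Mtf2 is a further case: its leader, the 718-base Mtf2-208, annotated as coding, held 41.6% of the TPM in replicate 1 and 31.8% in replicate 2, whereas the 4060-base Mtf2-201 had 1992 and 2088 of the gene's 3780 and 3911 counts. Kmt2c led with Kmt2c-208, of 6443 bases, at 36.4% and 42.6%, beside the 14967-base Kmt2c-201 at 31.9% and 34.3%.

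A level limited to near full-length coding transcripts, those at least 50% as long as the longest coding transcript of the gene, was computed for each member after the gene values had been seen. It kept 80% or more of the TPM in both libraries for 27 genes and under 50% in both for Mtf2 and Kmt2c. By this measure Mtf2 averaged 29.1 TPM in place of 102.2 TPM, Rbbp5 26.8 TPM in place of 51.1 TPM, and Kmt2c 4.99 TPM in place of 15.1 TPM. Kmt2b, Cbx8, Phc3 and Ring1 were also lower by more than 1.5-fold, at 5.04, 3.02, 2.39 and 3.40 TPM. Ezh2 kept 85.4 TPM of 95.6 TPM and Yaf2 83.9 TPM of 108.4 TPM, and the leaders of 8 of the 9 families were the same as by whole-gene TPM, with Kmt2d in place of Kmt2c as the exception.

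**Figure D4:**
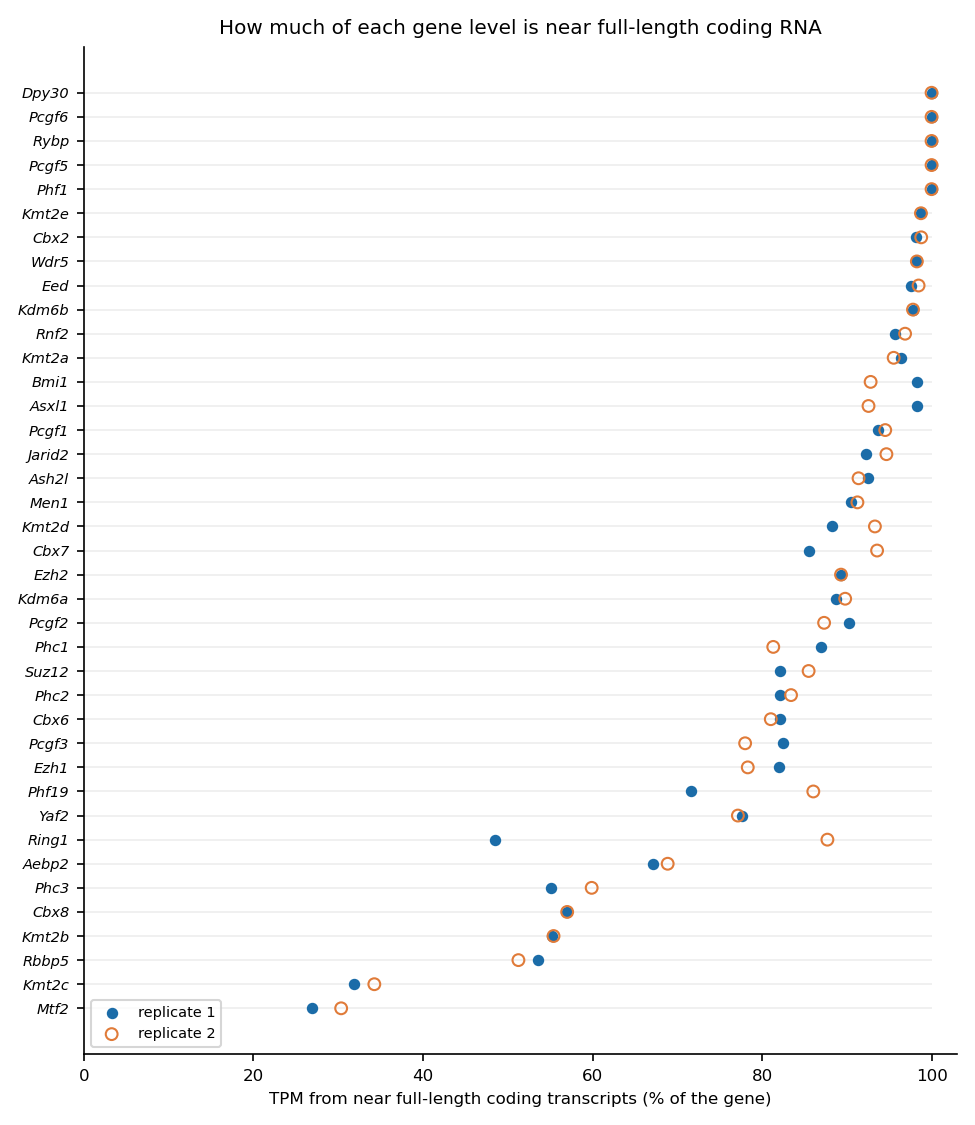
Percent of each gene's TPM that came from near full-length coding transcripts, with replicate 1 as filled points and replicate 2 as open rings, ordered by the mean. Mtf2 and Kmt2c lie below 50% in both libraries, Ring1 differs most between the libraries, and 27 genes lie at 80% or more in both.

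Between the embryo pools the 39 genes differed little. The log2 ratio of scaled counts, replicate 1 over replicate 2, ran from -0.34 for Pcgf5 to 0.20 for Ezh1 with a median of 0.00. No member passed 1.5-fold in either direction, against 5.95% of 17219 genes higher in replicate 1 and 4.87% lower. Most genes past 1.5-fold had few counts, whereas 37 of the 39 members had 100 counts or more in both libraries: among the 12352 genes with a mean of 100 counts or more, 79 were higher and 59 lower past 1.5-fold. Within 1.25-fold lay 38 of the 39 members and 11518 of those 12352 genes, a like share, against 13526 of all 17219 genes. Pcgf5, the exception, had 134 counts in replicate 1 and 181 in replicate 2. Next came Cbx7 at -0.32, from 60 and 80 counts.

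Marker RNAs of some cell types differed slightly between the pools. All 7 neuron markers were lower in replicate 1, with a median log2 ratio of -0.13 and a range from -0.20 to -0.04, and all 6 mesenchyme markers were higher, with a median of 0.22 and a range from 0.11 to 0.40. Of the members, 20 had a ratio above 0 and 19 below. Members lower in replicate 1 included Phc2 at -0.17 and Asxl1, Phc1 and Men1 at -0.15 each. Members higher in replicate 1 included Ezh1 at 0.20, Phf19 at 0.19, and Ring1 and Pcgf6 at 0.16 each. The part of the markers' cells in any of these values was not tested. Since each side is 1 library, these values compare the pools and have no replicate check.

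**Figure D5:**
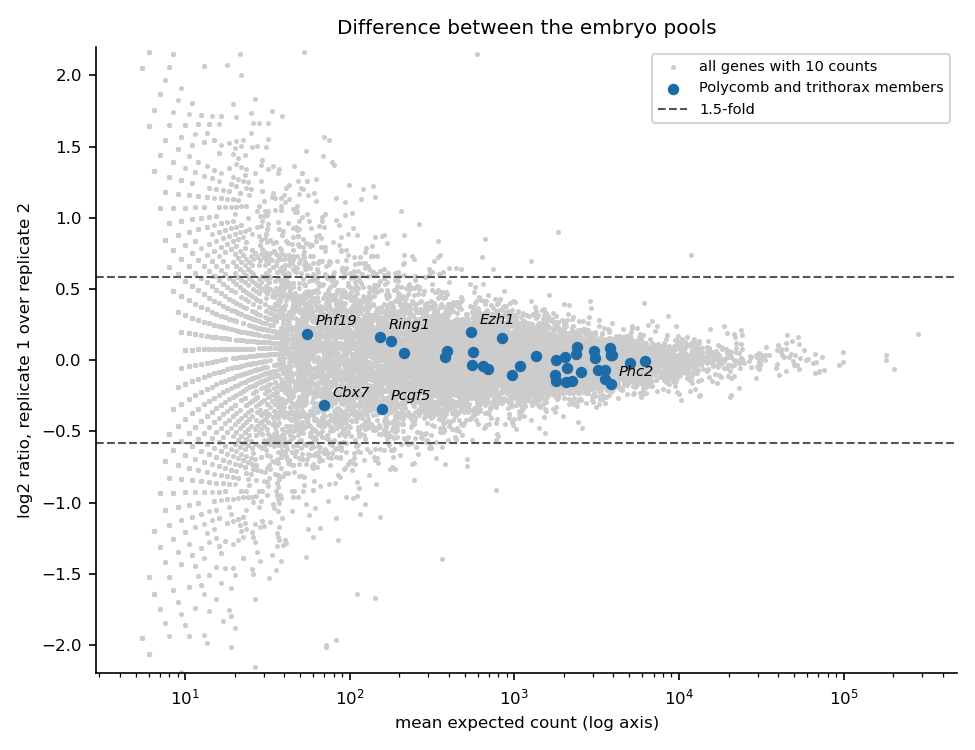
Log2 ratio of TMM-scaled expected counts, replicate 1 over replicate 2, against the mean count on a log axis, for the 39 members (large points) and all genes with at least 10 counts in a library (small points, of which 118 lie beyond the plotted range). Dashed lines mark 1.5-fold, and all members lie inside them between -0.34 and 0.20.

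Further subunits and opposing enzymes from lists of the same pathways were nearly all detected. All 5 other PRC2 partners were detected, led by the histone chaperones Rbbp4 at 394.5 TPM in replicate 1 and 380.4 TPM in replicate 2 and Rbbp7 at 250.7 TPM and 256.0 TPM. These are above every one of the 39 members, and Lcorl, the next of the list, had 26.8 TPM and 30.3 TPM. Of 18 other PRC1 partners 17 were detected, led by the casein kinase subunit Csnk2b at 239.5 TPM and 256.7 TPM, Dcaf7 at 73.4 TPM and 78.9 TPM, and the CpG-binding demethylase Kdm2b, partner of Pcgf1, at 61.0 TPM and 59.3 TPM. L3mbtl1 was the exception, with 2 counts in replicate 1 and 3 counts in replicate 2. The relatives of the fly recruiter Pho and its partner Sfmbt, Yy1 (19.5 TPM as a mean), Sfmbt1 (15.1 TPM) and Sfmbt2 (1.85 TPM), were all detected.

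On the opposing side, all 8 genes of the PR-DUB list were detected. Ogt, the glycosyltransferase that binds BAP1 complexes, averaged 186.2 TPM, Bap1, the deubiquitinase itself, 93.2 TPM, and Mbd5 20.3 TPM; Bap1 was thus above its partner Asxl1. Each of the 9 other COMPASS genes was detected, with Psip1, which tethers menin complexes to chromatin, at 277.7 TPM, Hcfc1 at 66.2 TPM and Cxxc1 at 31.6 TPM. The 7 genes listed as other trithorax-group enzymes were all detected too, led by the demethylases Kdm1a at 79.7 TPM, Kdm5b at 77.3 TPM and Kdm5a at 45.3 TPM. This list is a grouping by name, and whether each of its enzymes opposes Polycomb was not tested. For comparison with other chromatin regulators, the 39 members' median of 23.8 TPM lay below that of 21 BAF remodelling subunits, 50.9 TPM, and close to that of 13 DNA methylation genes, 19.9 TPM. Smarcb1 (228.5 TPM), Actl6a (186.2 TPM) and Smarce1 (160.4 TPM) were highest among the BAF genes, and Tdg (260.6 TPM), Mbd3 (210.1 TPM) and Uhrf1 (96.3 TPM) among the DNA methylation genes. These medians are descriptions, and no difference between the lists was tested.

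The windows upstream of the genes' start sites were, like the printed ones, mostly CG-rich. The RefSeq table held 44 such windows of 250 bases for 31 of the 39 genes. Some genes thus entered with several windows, and in Dpy30 and Men1 windows overlapped one another. The windows of Eed, Cbx6 and Phc1 and a window of Dpy30 lay wholly within annotated exons. A CpG observed-to-expected ratio over 0.6, as used to define CpG islands, was found in 70.5% of them, against 46.1% of 20150 windows of protein-coding genes, and the median GC content was 64.2% against 56%. The letters GGGCGG occurred in 68.2% of the members' windows and in 44.1% of all protein-coding windows, CCAAT in 31.8% against 35.0%, and TATAAA in 2.27% against 11.2%, each searched on both strands and counted on its own even where matches of different motifs overlapped; GGGCGG contains a CG itself. The single TATAAA was in a window of Jarid2. Detected genes and genes with CpG islands go together in general, and these shares were not adjusted for that.

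Other members with several start sites in the RefSeq table divided their TPM in different ways. The tables quantify only 2 transcripts of Pcgf5, the lowest PCGF gene, which start 30758 and 61439 bases into the gene. The nearer one, whose window had 4 CG sites, held 72.9% of the TPM in replicate 1 and 66.8% in replicate 2, and the farther one, whose window had 28 CG sites, held 27.1% and 33.2%. No quantified Pcgf5 transcript starts near the RefSeq site at the 5′ end of the gene, so use of that site could not be read. In Aebp2 the site at the 5′ end, with 1 CG site in its window, held 48.5% and 50.3%, against 0% in both libraries for a site with 14. A further site with 3 held 8.13% and 11.25%. An Aebp2 transcript with 25.65% and 26.17% is absent from the annotation used and was placed at no site, so the 0% is uncertain. Dpy30 went the other way, with all its TPM at clustered sites with 21 to 34 CG sites and 0% at the site with 1. In Jarid2, 89.4% of the TPM in replicate 1 and 89.6% in replicate 2 came from transcripts at the site 1797 bases into the gene. Among these genes the most used site was therefore not always the one with the most CG.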

How the data were processed

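The authors deposited, for each library, expected counts (reads as estimated for a gene or a transcript) and TPM values, made on mm10 with GENCODE M4, per the deposited file descriptions; aligner, quantifier and strandedness remain not given in the sources used here. Spike-ins are included in the deposited TPM (13.2% of the replicate 1 total, 11.8% of the replicate 2 total), which lowers gene levels by that share. Transcript shares within a gene were deposited as percent values. GENCODE M21 on GRCm38 gave symbols, transcript types and coordinates, and 42462 of 43346 identifiers matched. Spike-ins and 26248 numbered entries did not enter.

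Levels are deposited TPM, with mean and SD of the 2 libraries; log2 ratios between paralogs used a pseudocount of 0.1. For the ratio between pools, expected counts were rounded and genes with 10 counts in a library kept. TMM-scaled log2 ratios with a prior count of 2 then came from edgeR 4.0.16 under R 4.3.3 (TMM factors 1.00 in both). On simulated data of 43346 genes, with a fixed spread between libraries, only genes with a mean of 100 counts or more were scored. There this step recovered 98 of 100 genes changed 2-fold past 1.5-fold, and 113 of 12151 unchanged genes passed as well. Genes with fewer counts, such as Phf19 and Cbx7, were not covered. DESeq2 1.42.0 size factors, the deposited posterior mean TPM, coding transcripts alone, other thresholds and each library alone were alternatives. Promoter windows are from RefSeq; proteins were not analysed here. Counts without molecular identifiers are not independent molecules, and with 1 group of 2 pools no p-value was computed.

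The genes, lists and alternatives were chosen with earlier results of these data known. Named are all members, the 3 highest genes of each pathway and comparison list with up to 2 below 1 TPM, the 2 highest of each marker list, and members whose leading transcript changed, was not coding or held under 50% in both libraries. Singled out once their values had been seen were Ring1-202, the start sites of Phc2, Pcgf5 and Jarid2, and the overlapping genes Cuta and Srpk2.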

Additional observations from a re-analysis of the deposited data

How the results depend on the processing

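With 2 pools and no contrast, the levels carry an error from 1 pair of libraries, and neither strand nor cell type could be resolved. The count of detected members was 37 to 39 under the alternatives at 1 TPM, 34 at 5 TPM, and 38 and 39 in the single libraries, against 38. The median of the 39 genes, 23.8 TPM, was 22.1 TPM on near full-length coding transcripts, an alternative chosen after seeing the data, and that of PRC1 also moved to 22.1 TPM. The KMT2 median was 28.7 TPM on the same transcripts, against 31.2 TPM. The PRC2 median, 16.7 TPM, was 17.1 TPM by posterior mean TPM, 14.0 TPM on coding transcripts and 14.0 TPM on near full-length ones. The leading paralog was the same in all 9 families by posterior mean TPM, coding transcripts or a pseudocount of 1, in 8 on near full-length coding transcripts, and in 7 by counts not divided by length; left to each library alone it was the same in 8 to 9. Reversed pairs were Pcgf1 over Pcgf3 by counts (log2 -3.00), Pcgf3 over Pcgf6 on coding (-0.059) and near full-length transcripts (-0.11), Kmt2c over Kmt2d on near full-length transcripts (-1.11) and by counts (-0.68), and Kmt2b over Kmt2a on coding transcripts (-0.75), near full-length transcripts (-0.71) and by counts (-1.90). Counts favour long transcripts by construction; the cause of the others was not tested. By the ratio of TPM, 1 member, Ring1, was higher in replicate 1 past 1.5-fold (log2 0.64, against 0.16 by counts), and 0 by every other setting run. The same transcript led in both libraries in 33 members, and in 34 by posterior mean TPM. Leaving a library out was not run for leading transcripts or the pool ratio, which need both. No paired analysis was possible because there is 1 group.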
